A study of Mus musculus with 20 samples.

Results

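The urea cycle and the enzymes that break down amino acids were followed in mouse liver as a set of 48 genes, taken by symbol from a list of pathway enzymes that was drawn up with earlier results of these data known. An intact line in the deposited count table was found for 38 of the 48, and all 38 passed the filter on low counts. The other 10, Arg1, Gls2, Tdo2, Ido2, Haao, Hgd, Cdo1, Pcca, Pccb and Upb1, had lines whose values had been displaced and were not used here. So arginase, the last step of the cycle, and tryptophan dioxygenase, the entry to the kynurenine pathway, are not described. Over the whole table, 23993 of 35504 genes had an intact line, and 10207 were tested.

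The study fed oral combined contraceptives (OC) or vehicle in the diet to female mice, which were either sedentary or had access to a wheel for voluntary running. Each of the 4 groups, sedentary vehicle, running vehicle, sedentary OC and running OC, held 5 individual mice, with 1 RNA sequencing library of liver RNA from each. The strain, age, dose and length of treatment are not given in the sources used here. Total counts over intact genes ran from 10883936 to 16134618 per library. Levels are given as CPM, counts brought to a common library total with TMM scaling, and changes as log2 fold changes from edgeR's quasi-likelihood fit to all 20 libraries. Every adjusted p is from that fit with Benjamini-Hochberg adjustment over the 10207 genes unless another tool or setting is named. Fits without 1 library or with no filter were adjusted over their own tested genes. A gene was called at an adjusted p below 0.05. In bulk liver, fewer cells of a type and less RNA per cell cannot be told apart. The diets separated on the first principal component of all genes (39.2% of variance). The next component set sedentary vehicle replicate 2 apart (53.0, against -17.1 to 11.2 in the other 19 libraries), and that library was also the lowest of its group for 24 of the 38 members.

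Hepatocytes remove the amino groups of dietary and tissue amino acids and pass the nitrogen, as ammonia and aspartate, through the urea cycle, which begins in mitochondria and ends in the cytosol. Many of these enzymes are made mainly by periportal hepatocytes, while glutamine synthetase and ornithine aminotransferase mark the cells around the central vein. The carbon skeletons enter glucose and fat metabolism, and sulfur from methionine passes through homocysteine and cysteine to taurine. Glucagon, glucocorticoids and dietary protein are known to raise many of the genes.

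On OC, more of the called members were lower than higher. Averaged over activity, 17 of 38 members were called (44.7%), 3 higher and 14 lower, beside 22.9% of all tested genes (11.9% higher and 11.0% lower). The called losses lay in the urea cycle (Otc, Cps1), histidine (Hal, Amdhd1), glutamate and ornithine (Glud1, Oat), hydroxyproline (Prodh2), glyoxylate (Agxt, Agxt2), transsulfuration (Cbs), lysine (Aass) and leucine (Ivd, Mccc1, Mccc2) breakdown. The 3 that rose were Csad, the taurine-forming decarboxylase, by 4.61-fold, Acmsd of the kynurenine pathway by 1.86-fold and the tyrosine aminotransferase Tat by 1.60-fold. The median log2 change over the 38 members was -0.16, against 0.00 over all genes.

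Within sedentary mice 9 of 38 members were called (23.7%), 3 higher and 6 lower, beside 16.3% of all genes (9.11% higher and 7.20% lower). Within running mice 13 were called (34.2%), 3 higher and 10 lower, beside 13.2% (7.09% higher and 6.06% lower). These 2 comparisons share no library, while the average uses the libraries of both. There were 6 members that were called in both, namely Csad and Tat as higher and Prodh2, Otc, Hal and Amdhd1 as lower. Kynu, Agxt and Agxt2 were called in sedentary mice, and Acmsd, Cbs, Glud1, Ivd, Mccc1, Mccc2 and Oat in running mice. The sign of the OC change was the same in both for 26 of 38, and the share over all genes was not counted. Without sedentary vehicle replicate 2 the counts were 12 in sedentary mice, 15 in running mice and 18 on average, beside 1631, 1658 and 2616 of 10240 genes in all (from 1665, 1343 and 2338 of 10207 with every library). The sedentary count was 5 without sedentary OC replicate 2 and also 5 without sedentary OC replicate 5, where the calls over all genes fell too, to 1210 of 10272 and 1218 of 10281. Scaling by library totals alone moved the median of all genes by 0.11 on the log2 scale for the average, and the calls became 5 higher and 9 lower. For sedentary mice they then became 5 higher and 3 lower, and for running mice 3 higher and 9 lower. Calls over all genes rose too with that scaling, to 3157 on average, 2071 in sedentary mice and 1728 in running mice, of 10207.

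**Figure D1:**
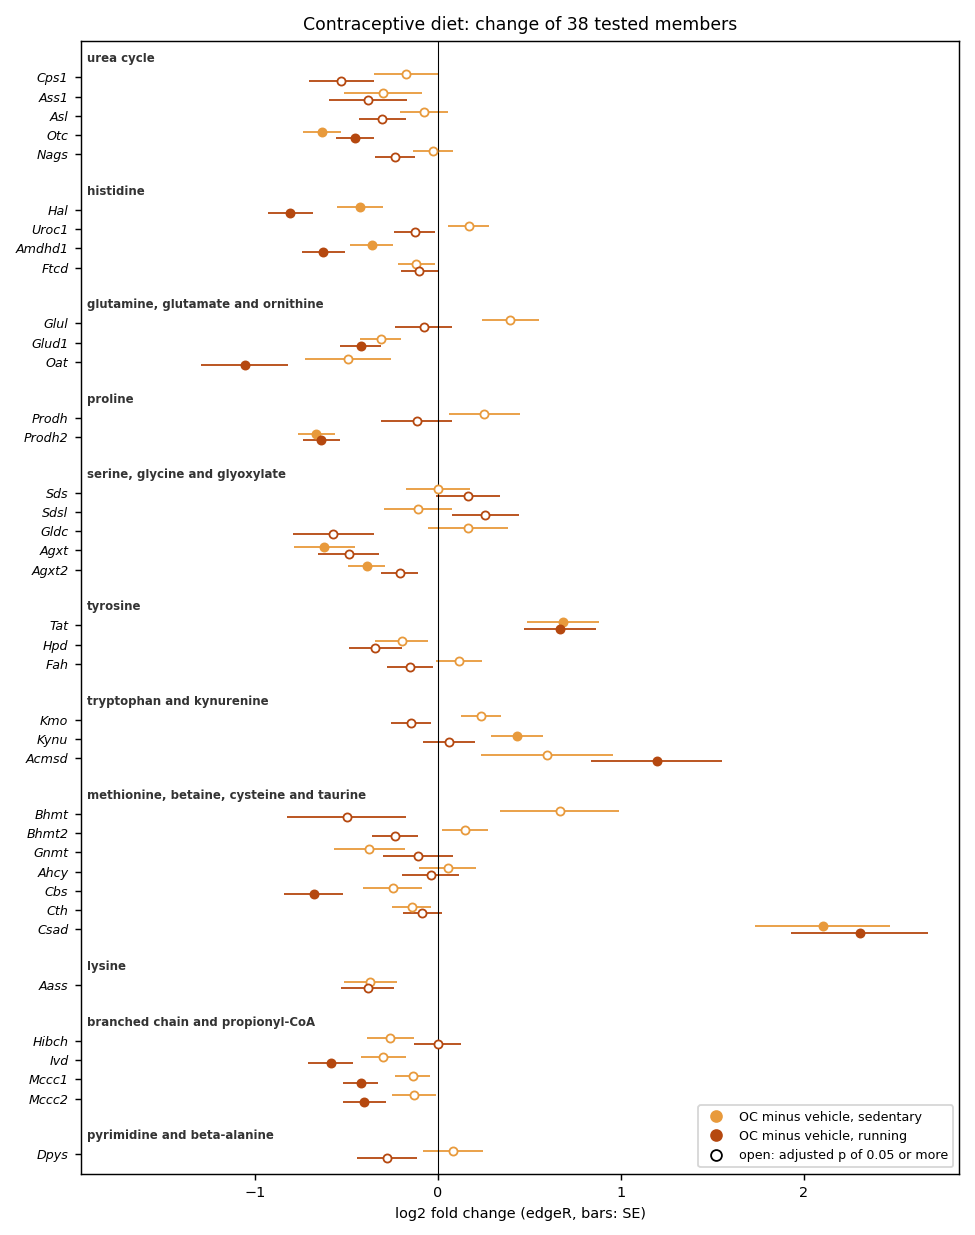
Log2 fold change of OC against vehicle for the 38 tested members, grouped by pathway, in sedentary mice (light orange) and running mice (dark orange), 5 mice a group; bars are SE and filled points had an adjusted p below 0.05 (edgeR). Most points lie to the left of 0, and Csad stands furthest to the right at 2.10 and 2.31.

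The groups of libraries did not overlap at all between the 10 OC and the 10 vehicle mice for 3 of the 38 members, Csad as higher and Prodh2 and Otc as lower, beside 2.54% of all tested genes (1.69% higher and 0.843% lower). In sedentary mice 6 members did not overlap, Csad and Glul as higher and Otc, Prodh2, Agxt and Agxt2 as lower, beside 11.0% of all genes (7.01% higher, 4.02% lower). In running mice it was 10 members, Csad as higher and Otc, Hal, Amdhd1, Glud1, Oat, Prodh2, Hpd, Ivd and Mccc1 as lower, beside 10.4% (5.44% higher, 4.95% lower).

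**Figure D2:**
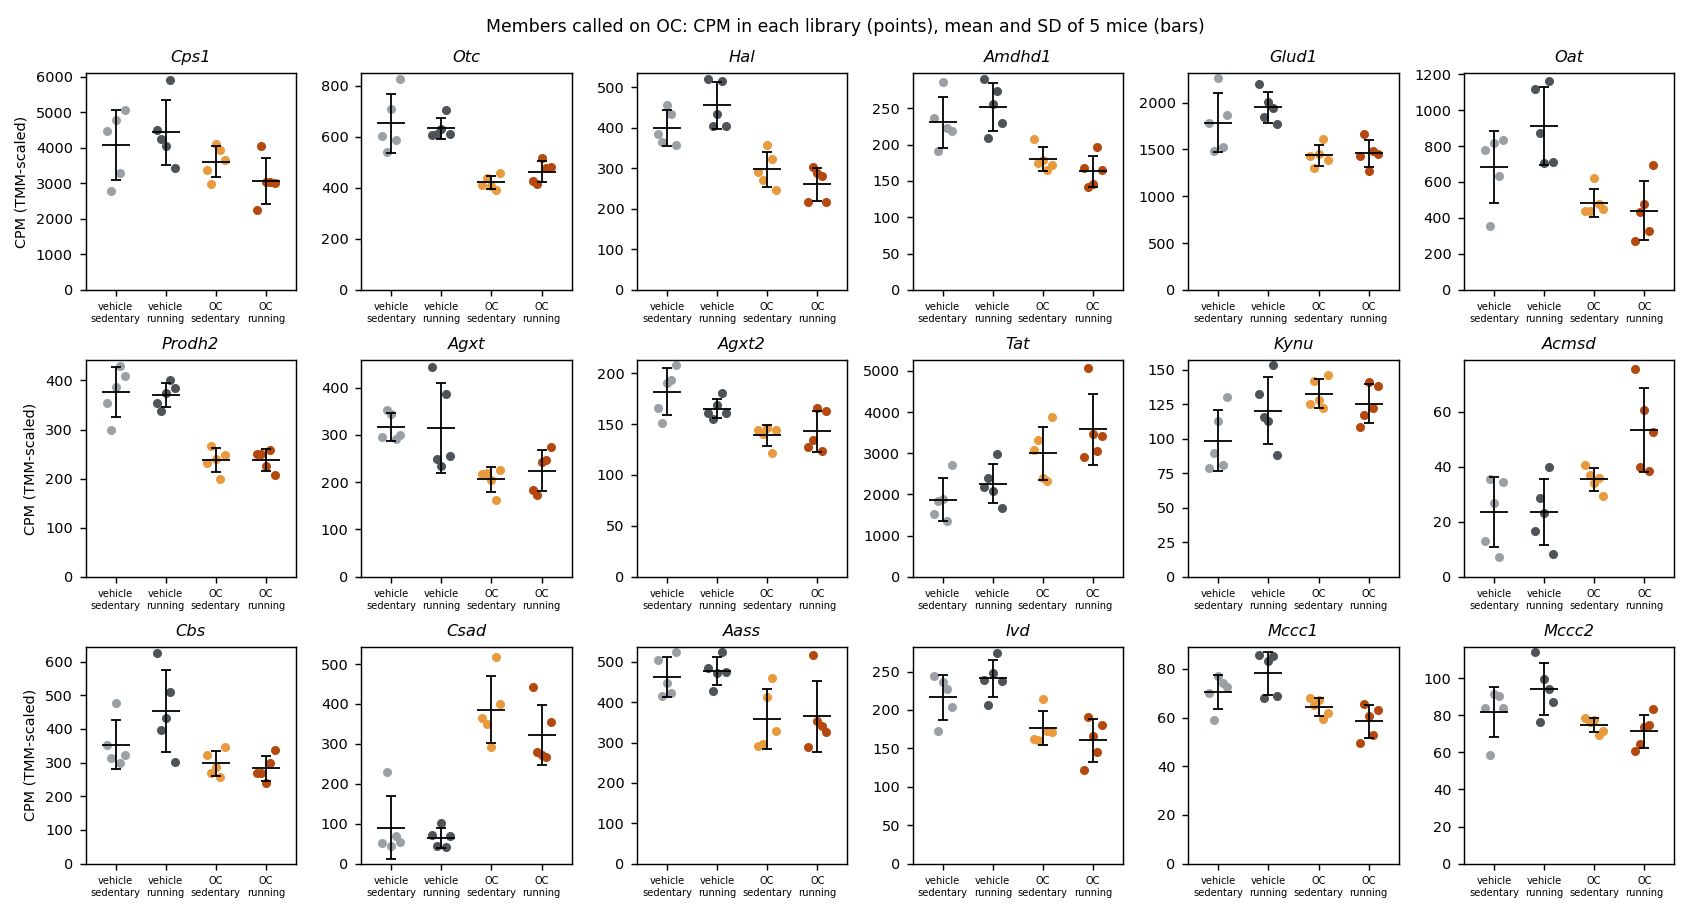
CPM of the 18 members called in any OC comparison, with 1 point for each library, a horizontal bar for the mean and an error bar for the SD of 5 mice in each of the 4 groups; each vertical axis starts at 0. In Csad the 10 OC libraries lie above all vehicle libraries, and in Otc and Prodh2 below them.

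The bases upstream of the start of 4 members are shown. These are Csad, Prodh2 and Otc, whose diets did not overlap, and Hal, which was called as lower in both activities though its sedentary groups overlapped. Tat and Amdhd1 were also called in both activities and are not shown. Each is the 250 bases before the RefSeq start on GRCm38.p6, written 5′ to 3′ on the gene's strand. Csad is chr15:102189044-102189293, minus strand, the more downstream of its 2 RefSeq starts, Prodh2 chr7:30493408-30493657, plus strand, Otc chrX:10252055-10252304, plus strand and Hal chr10:93488518-93488767, plus strand. Capitals mark a match, on either strand, to 1 of the 6 motifs searched.
Csad: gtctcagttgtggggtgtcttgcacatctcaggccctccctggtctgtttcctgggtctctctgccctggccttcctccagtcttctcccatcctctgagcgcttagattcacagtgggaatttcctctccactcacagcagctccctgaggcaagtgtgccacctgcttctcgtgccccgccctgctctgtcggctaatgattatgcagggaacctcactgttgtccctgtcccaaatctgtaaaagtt
Prodh2: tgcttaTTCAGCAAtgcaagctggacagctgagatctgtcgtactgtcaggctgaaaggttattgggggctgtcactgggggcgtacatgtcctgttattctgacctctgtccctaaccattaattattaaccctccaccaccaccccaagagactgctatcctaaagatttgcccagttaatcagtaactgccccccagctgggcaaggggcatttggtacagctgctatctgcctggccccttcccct
Otc: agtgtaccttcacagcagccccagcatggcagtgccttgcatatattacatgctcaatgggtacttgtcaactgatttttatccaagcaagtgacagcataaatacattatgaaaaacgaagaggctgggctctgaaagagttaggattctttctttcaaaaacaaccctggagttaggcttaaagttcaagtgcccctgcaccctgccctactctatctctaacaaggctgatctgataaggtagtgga
Hal: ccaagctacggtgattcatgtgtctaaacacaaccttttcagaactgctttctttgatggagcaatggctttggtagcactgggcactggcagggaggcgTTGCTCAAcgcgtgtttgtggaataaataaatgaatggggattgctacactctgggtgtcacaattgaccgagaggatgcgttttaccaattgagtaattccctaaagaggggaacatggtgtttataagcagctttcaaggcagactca

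The capitals in Prodh2 and Hal are matches to the C/EBP motif TTGCNNAA, starting 244 and 150 bases before the start. That motif was found in 3 of 33 member windows (Aass, Prodh2 and Hal) and in 9.56% of 32851 windows of the same length. The table used held windows for 31 of the 38 tested members, 2 each for Csad and Agxt2. The STAT motif TTCNNNGAA was in 2 windows (Ivd and Prodh) and 7.02% of all. TGACG, which is only part of the cAMP response element, was in 4 windows (Acmsd, Aass, Ftcd and the more upstream start of Csad) and 17.8% of all. AGAACA, which is only part of the glucocorticoid response element, was in 1 window (Agxt) and 16.1% of all. The HNF4 motif CAAAGTCCA was in both overlapping windows of Agxt2 and 0.384% of all. The palindromic oestrogen response element was in 0 member windows and 0.0639% of all. Both strands were searched, and a match is only a match of letters.

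Among the 5 urea cycle genes tested, Otc and Cps1 fell on OC and none rose. Otc (chrX:10252305-10321024, plus strand), the ornithine transcarbamylase that makes citrulline in mitochondria, was the member of the cycle with the clearest change. Otc gave 602, 542, 707, 586 and 827 CPM in the sedentary vehicle mice and 607, 609, 631, 705 and 611 CPM in the running vehicle mice. Among OC mice it gave 412, 436, 405, 392 and 459 CPM when sedentary and 427, 415, 515, 476 and 481 CPM when running. All 10 OC libraries lay below all 10 vehicle libraries. The log2 change was -0.63 (SE 0.10, adjusted p = 0.000358) in sedentary mice, -0.45 (SE 0.10, adjusted p = 0.00683) in running mice and -0.54 (SE 0.07, adjusted p = 1.53e-05) on average, a fall to 0.687 of the vehicle level. Cps1 (chr1:67123026-67231259, plus strand), the carbamoyl phosphate synthetase that takes up ammonia, fell by 0.35 on average (SE 0.12, adjusted p = 0.0464). Cps1 gave 4466, 2777, 4794, 3305 and 5051 CPM in the sedentary vehicle mice and 4512, 4247, 4051, 5917 and 3435 CPM in the running vehicle mice. On OC the sedentary mice gave 3387, 2982, 4114, 3942 and 3649 CPM and the running mice 2237, 4053, 3036, 3043 and 3006 CPM. The groups overlapped in both activities. The change was -0.17 (adjusted p = 0.532) in sedentary and -0.53 (adjusted p = 0.0518) in running mice. The running change was called with DESeq2 (adjusted p = 0.0217), and with edgeR without sedentary vehicle replicate 2 (0.0270) or 5 (0.0484), running vehicle replicate 5 (0.0353), sedentary OC replicate 3 (0.0499) or running OC replicate 2 (0.0193). The average Cps1 call was lost with scaling by library totals alone (0.132), with no filter on low counts (0.0601), with limma voom (0.0544), without sedentary vehicle replicates 1 (0.0733), 3 (0.0821) and 5 (0.0825), without running vehicle replicates 1 (0.0572), 2 (0.0568), 3 (0.0505) and 4 (0.0938), without sedentary OC replicates 1 (0.0758), 2 (0.0877), 4 (0.0508) and 5 (0.0661) and without running OC replicates 1 (0.0841), 3 (0.0674), 4 (0.0647) and 5 (0.0580), with adjusted p in parentheses.

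Ass1, which joins citrulline and aspartate, stood below only Gnmt in level per kb of exon in sedentary vehicle mice and was not called, at -0.34 (SE 0.15, adjusted p = 0.110) on average. It gave 4009, 3942, 4524, 2082 and 5771 CPM in the sedentary vehicle mice and 3365, 3018, 3313, 3313 and 3513 CPM in the sedentary OC mice. Running vehicle mice gave 3557, 4988, 5383, 6852 and 2826 CPM and running OC mice 3207, 3581, 4027, 3545 and 3749 CPM. All 10 OC libraries lay inside the wider range of the vehicle libraries. Without sedentary vehicle replicate 4 or running vehicle replicate 5, the lowest of their groups, the average reached -0.42 (adjusted p = 0.0209) and -0.41 (adjusted p = 0.0436). Asl, which releases arginine, was not called either, at -0.19 (adjusted p = 0.148) on average. Asl gave 864, 673, 808, 714 and 1004 CPM in the sedentary vehicle mice and 736, 786, 971, 1090.3 and 769 CPM in the running vehicle mice. Values on OC were 708, 728, 886, 794 and 745 CPM in sedentary and 635, 838, 734, 737 and 584 CPM in running mice. The groups overlapped, as did those of Nags, which makes the activator of Cps1. Nags gave 79.8, 55.8, 81.0, 73.7 and 81.8 CPM in the sedentary vehicle mice and 87.5, 78.4, 101, 102 and 69.1 CPM in the running vehicle mice. The sedentary OC mice gave 77.7, 67.0, 73.8, 76.9 and 69.7 CPM, and the running OC mice 70.3, 81.2, 71.3, 77.8 and 71.4 CPM. Nags stood at -0.13 (adjusted p = 0.240) on average. All 5 tested genes of the cycle had a negative log2 change in both activities, the weakest at -0.03 in sedentary mice. Only 1 of the 5, Otc, was called in each activity. Of all 38 members 23 changes were negative in sedentary and 31 in running mice. The share of negative changes over all genes was not counted.

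Of the 3 genes tested around glutamate, glutamine and ornithine, Glud1 and Oat fell and Glul was not called. Oat (chr7:132557478-132576398, minus strand) turns ornithine into a precursor of glutamate and proline. Oat gave 776, 353, 815, 631 and 832 CPM in the sedentary vehicle mice and 1118, 872, 705, 1160.2 and 713 CPM in the running vehicle mice. With OC the level was 439, 437, 621, 479 and 448 CPM in sedentary and 272, 432, 476, 325 and 693 CPM in running mice. The running groups did not overlap, and the sedentary groups did. Oat changed by -1.06 (SE 0.24, adjusted p = 0.00546) in running mice, to 0.481 of the vehicle level, and by -0.49 (adjusted p = 0.161) in sedentary mice. The difference between the 2 changes was -0.56 and was not called (adjusted p = 0.372). Glud1, the mitochondrial dehydrogenase that frees ammonia from glutamate, changed by -0.42 (SE 0.11, adjusted p = 0.0171) in running mice and by -0.31 (adjusted p = 0.0626) in sedentary mice. Glud1 gave 1785, 1477, 2263, 1526 and 1867 CPM in the sedentary vehicle mice and 2198, 1841, 2008, 1937 and 1768 CPM in the running vehicle mice. Among OC mice it gave 1434, 1301, 1452, 1608 and 1391 CPM when sedentary and 1425, 1667, 1266, 1481 and 1447 CPM when running. The running groups did not overlap. The Glud1 call was lost without running OC replicate 3 (0.0558). Glul, the glutamine synthetase of pericentral cells, gave 1473, 728, 1469, 1362 and 1477 CPM in sedentary vehicle and 1820.0, 1659, 1689, 1729 and 1672 CPM in sedentary OC mice. All 5 sedentary OC libraries were higher, yet the change of 0.40 was not called (adjusted p = 0.0849), and in running mice it was -0.08 (adjusted p = 0.780). With scaling by library totals alone Glul was called in sedentary mice (0.53, adjusted p = 0.00957).

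Of the 2 proline genes, 1 fell and the other was not called. Prodh2 (chr7:30493622-30513402, plus strand), the hydroxyproline dehydrogenase, fell in both activities. Prodh2 gave 355, 299, 387, 430.0 and 408 CPM in the sedentary vehicle mice and 355, 337, 374, 401 and 384 CPM in the running vehicle mice. On OC the sedentary mice gave 232, 266, 240.3, 199.9 and 247 CPM and the running mice 249.84, 250.04, 225, 258 and 206 CPM. All 10 OC libraries lay below all 10 vehicle libraries. The change was -0.66 (SE 0.10, adjusted p = 0.000169) in sedentary mice, -0.64 (SE 0.10, adjusted p = 0.000227) in running mice and -0.65 (SE 0.07, adjusted p = 1.10e-06) on average, to 0.637 of the vehicle level. The Prodh2 and Otc calls held under all 25 alternatives. Prodh, the proline dehydrogenase, was not called, at 0.25 (adjusted p = 0.398) in sedentary and -0.12 (adjusted p = 0.731) in running mice.

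Histidine breakdown held 2 genes that fell in both activities and 2 that were not called. Hal (chr10:93488768-93519304, plus strand), the ammonia-lyase that opens the pathway, and Amdhd1 (chr10:93523338-93540033, minus strand), the imidazolonepropionase later in the pathway, lie 4033 bp apart on opposite strands. Hal gave 385, 365, 457, 434 and 357 CPM in the sedentary vehicle mice and 519, 404, 435, 515 and 404 CPM in the running vehicle mice. Values on OC were 290.4, 271, 358, 322 and 246 CPM in sedentary and 216, 302, 287, 280.1 and 217 CPM in running mice. In running mice the groups did not overlap, and in sedentary mice they did. Hal changed by -0.43 (SE 0.12, adjusted p = 0.0238) in sedentary and -0.81 (SE 0.12, adjusted p = 0.000161) in running mice. The sedentary Hal call was lost with scaling by library totals alone (0.0734), without sedentary vehicle replicates 3 (0.0542) and 4 (0.0507) and without sedentary OC replicates 1 (0.0557), 2 (0.0614) and 5 (0.0700), with adjusted p in parentheses.

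Amdhd1 gave 237, 191, 286, 222 and 218 CPM in the sedentary vehicle mice and 291, 209, 256, 274 and 229.7 CPM in the running vehicle mice. The sedentary OC mice gave 208, 175, 179, 165 and 171 CPM, and the running OC mice 167, 142, 146, 196 and 165 CPM. As with Hal, the running groups did not overlap and the sedentary groups did. The Amdhd1 change was -0.36 (SE 0.12, adjusted p = 0.0374) in sedentary and -0.63 (SE 0.12, adjusted p = 0.00105) in running mice. The sedentary Amdhd1 call was lost with scaling by library totals alone (0.102), with no filter on low counts (0.0560), without sedentary vehicle replicates 1 (0.0603) and 3 (0.100) and without sedentary OC replicates 2 (0.0766), 3 (0.0631), 4 (0.0761) and 5 (0.0808). The difference between activities was not called for either gene (adjusted p = 0.270 for Hal and 0.395 for Amdhd1). Uroc1, the urocanase between them, stood at 0.02 (adjusted p = 0.882) on average, and Ftcd, which passes the formimino group to folate, at -0.11 (adjusted p = 0.281).

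Among the serine, glycine and glyoxylate genes, Agxt and Agxt2 fell in sedentary mice, while Sds, Sdsl and Gldc were not called in any OC comparison with all libraries. Agxt (chr1:93135240-93145421, plus strand) is the peroxisomal transaminase that removes glyoxylate. Agxt gave 296, 352, 344, 292 and 299 CPM in the sedentary vehicle mice and 444, 249.70, 234, 387 and 256 CPM in the running vehicle mice. With OC the level was 218, 220.0, 205, 162 and 225 CPM in sedentary and 184, 173, 242, 246 and 275 CPM in running mice. The sedentary groups did not overlap. Agxt changed by -0.62 (SE 0.17, adjusted p = 0.0156) in sedentary mice and by -0.49 (adjusted p = 0.0564) in running mice, and the running change was called with DESeq2 (adjusted p = 0.0313) and with edgeR without running vehicle replicate 2 (0.0375), 3 (0.0383) or 5 (0.0436) or running OC replicate 5 (0.0337). Agxt2 gave 166, 151, 191, 194 and 208 CPM in the sedentary vehicle mice and 161, 155, 169, 180.3 and 161 CPM in the running vehicle mice. Among OC mice it gave 144, 140.1, 146, 121 and 144 CPM when sedentary and 128, 135, 166, 123 and 163 CPM when running. Agxt2 is a mitochondrial transaminase that also acts on glyoxylate, and its sedentary groups did not overlap, at a change of -0.39 (SE 0.10, adjusted p = 0.0133). In running mice it was -0.21 (adjusted p = 0.183). With scaling by library totals alone the Agxt2 calls were lost, at an adjusted p of 0.0673 in sedentary mice and 0.0677 on average. Exons of Agxt2 overlap those of Gm21973 on the same strand, so reads may be shared. Gm21973 changed by -0.10 (adjusted p = 0.709) in sedentary mice. Serine dehydratase Sds stood at 0.08 (adjusted p = 0.673) on average, and Sdsl, a relative of Sds, at 0.08 (adjusted p = 0.724). Glycine decarboxylase Gldc stood at 0.16 (adjusted p = 0.649) in sedentary mice, -0.57 (adjusted p = 0.0895) in running mice and -0.20 (adjusted p = 0.372) on average. Without running OC replicate 2 its running change was -0.77 and was called (adjusted p = 0.0171).

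In tyrosine breakdown Tat rose, and Hpd and Fah were not called. Tat (chr8:109990437-109999803, plus strand), whose transaminase reaction opens the pathway, gave 1530.2, 1837, 1889.6, 1358 and 2716 CPM in the sedentary vehicle mice and 2188, 2389.7, 2076, 2974 and 1669 CPM in the running vehicle mice. Sedentary OC mice gave 3069, 3321, 2394, 2337 and 3871 CPM and running OC mice 2914, 5075, 3456, 3065 and 3414 CPM. The highest vehicle libraries overlapped the lowest OC libraries in both activities. Tat changed by 0.68 (SE 0.20, adjusted p = 0.0228) in sedentary and 0.67 (SE 0.20, adjusted p = 0.0296) in running mice, 1.60-fold on average (adjusted p = 0.00125). The sedentary call was lost without sedentary vehicle replicates 1 (0.0541) and 4 (0.0554) and without sedentary OC replicates 2 (0.0517) and 5 (0.0680), and the running call without running vehicle replicates 1 (0.0640), 3 (0.0658) and 5 (0.0721) and without running OC replicates 2 (0.0729) and 3 (0.0533), while the average held in all 25 alternatives. Hpd, the next enzyme, stood at -0.27 (adjusted p = 0.0660) on average. Its running groups did not overlap (3581 to 4198 CPM on vehicle and 2533 to 3295 CPM on OC). Without sedentary vehicle replicate 2 Hpd was called as lower on average (-0.35, adjusted p = 0.000545). Fah, the last enzyme, stood at -0.02 (adjusted p = 0.907).

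In the kynurenine pathway Acmsd and Kynu were called as higher, each in 1 activity, and Kmo was not called. Acmsd (chr1:127729413-127767978, plus strand) diverts the pathway away from NAD synthesis and was among the lowest members. Acmsd gave 13.2, 35.5, 26.9, 7.30 and 34.6 CPM in the sedentary vehicle mice and 16.5, 28.8, 23.3, 40.0 and 8.43 CPM in the running vehicle mice. On OC the sedentary mice gave 40.7, 37.1, 34.2, 35.8 and 29.3 CPM and the running mice 75.4, 40.0, 60.8, 38.3 and 52.8 CPM. Vehicle values were spread widely, from 7.30 to 40.0 CPM, and overlapped the OC values. Acmsd changed by 1.20 (SE 0.36, adjusted p = 0.0310) in running mice, by 0.60 (adjusted p = 0.270) in sedentary mice and by 0.90 (SE 0.25, adjusted p = 0.0135) on average. The running call was lost without running vehicle replicates 1 (0.0831), 3 (0.0617) and 5 (0.0645) and without running OC replicates 1 (0.0928) and 3 (0.0695). An antisense RNA on the opposite strand, 2900009J06Rik, overlaps Acmsd exons, and its group means were all under 1 CPM. Kynu, the kynureninase, rose by 0.43 (SE 0.14, adjusted p = 0.0430) in sedentary mice and stood at 0.06 (adjusted p = 0.821) in running mice. Kynu gave 78.7, 89.9, 113, 81.2 and 129.9 CPM in the sedentary vehicle mice and 132, 116, 113, 153 and 87.9 CPM in the running vehicle mice. Values on OC were 125, 142, 128, 122 and 146 CPM in sedentary and 109, 117, 141, 122 and 138 CPM in running mice. The sedentary groups overlapped in 1 vehicle library. The Kynu call was lost with no filter on low counts (0.0505), without sedentary vehicle replicates 1 (0.103), 2 (0.0796) and 4 (0.0995), without running vehicle replicate 3 (0.0514), without sedentary OC replicates 1 (0.0659), 2 (0.0894), 3 (0.0597) and 5 (0.0949) and without running OC replicate 4 (0.0504). Kmo, the monooxygenase before it, stood at 0.04 (adjusted p = 0.719) on average.

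Methionine, cysteine and taurine metabolism held the member with the greatest change on OC. Csad (chr15:102176999-102204724, minus strand), the decarboxylase that forms hypotaurine from cysteine sulfinate, rose in both activities. Csad gave 52.7, 229.9, 44.1, 68.5 and 53.4 CPM in the sedentary vehicle mice and 72.2, 43.1, 102, 40.6 and 68.3 CPM in the running vehicle mice. The sedentary OC mice gave 365, 351, 292, 517 and 401 CPM, and the running OC mice 441, 279.8, 272, 267 and 354 CPM. All 10 OC libraries were above all 10 vehicle libraries, and sedentary vehicle replicate 2 was far above the other vehicle mice. Mean CPM was 89.7 ± 78.9 and 65.3 ± 25.1 in sedentary and running vehicle mice, and 385 ± 83.8 and 323 ± 75.1 in the corresponding OC mice (SD, n = 5). Csad changed by 2.10 (SE 0.37, adjusted p = 0.000643) in sedentary mice, 2.31 (SE 0.37, adjusted p = 0.000268) in running mice and 2.20 (SE 0.26, adjusted p = 2.83e-06) on average, 4.61-fold. Without sedentary vehicle replicate 2 the sedentary change was 2.82 on the log2 scale. Exons of Csad overlap Zfp740 on the opposite strand, and Zfp740 changed by 0.00 on average (adjusted p = 0.995).

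Cbs (chr17:31608894-31637238, minus strand), which commits homocysteine to cysteine, fell in running mice. Cbs gave 351, 313, 479, 299 and 322 CPM in the sedentary vehicle mice and 624, 397, 431, 509 and 303 CPM in the running vehicle mice. With OC the level was 324, 269.6, 288, 259 and 347 CPM in sedentary and 268, 270.3, 239, 299 and 338 CPM in running mice. Running vehicle replicate 5 lay among the running OC values, and the sedentary groups overlapped. Cbs changed by -0.68 (SE 0.16, adjusted p = 0.00847) in running mice and -0.25 (adjusted p = 0.315) in sedentary mice, with a difference that was not called (adjusted p = 0.327). Bhmt, which returns homocysteine to methionine with betaine, had opposite signs, 0.67 (adjusted p = 0.171) in sedentary and -0.50 (adjusted p = 0.331) in running mice. Its CPM spanned 501 to 1295 in sedentary vehicle, 884 to 1556 in sedentary OC, 815 to 1628 in running vehicle and 369.7 to 1792 in running OC mice. Without running OC replicate 5 the running value of Bhmt was -0.92 (adjusted p = 0.0461). Bhmt2, Gnmt, Ahcy and Cth, which handle methyl groups and cystathionine, were not called in any comparison, with average changes from -0.24 (Gnmt) to 0.01 (Ahcy).

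In branched-chain breakdown, Ivd, Mccc1 and Mccc2, which act in sequence on leucine, fell in running mice, and Hibch of valine breakdown was not called. Ivd gave 244, 172, 236, 227 and 203 CPM in the sedentary vehicle mice and 238, 206, 248, 274 and 238 CPM in the running vehicle mice. Among OC mice it gave 162, 160.5, 215, 172 and 172 CPM when sedentary and 121, 191, 166, 145 and 179.8 CPM when running. The running groups of Ivd, the isovaleryl-CoA dehydrogenase, did not overlap, and it changed by -0.59 (SE 0.12, adjusted p = 0.00326) there and by -0.30 (adjusted p = 0.102) in sedentary mice. Mccc1 and Mccc2 are the subunits of methylcrotonyl-CoA carboxylase. Mccc1 gave 70.0, 59.1, 76.9, 74.4 and 72.7 CPM in the sedentary vehicle mice and 85.8, 68.1, 83.1, 85.2 and 69.0 CPM in the running vehicle mice. On OC the sedentary mice gave 68.0, 65.0, 67.2, 59.3 and 61.9 CPM and the running mice 49.7, 65.6, 60.6, 53.0 and 63.3 CPM. Its running groups did not overlap, at a change of -0.42 (SE 0.10, adjusted p = 0.00576). Mccc2 gave 84.0, 58.7, 91.5, 90.2 and 84.1 CPM in the sedentary vehicle mice and 114, 76.5, 99.8, 94.2 and 87.2 CPM in the running vehicle mice. Values on OC were 78.5, 76.3, 77.5, 69.6 and 71.8 CPM in sedentary and 60.8, 64.4, 73.7, 74.5 and 83.5 CPM in running mice. The groups of Mccc2 overlapped in both activities, and its running change was -0.40 (SE 0.12, adjusted p = 0.0289). The Mccc2 running call was lost with scaling by library totals alone (0.0945), without running vehicle replicates 1 (0.0833), 3 (0.0718) and 4 (0.0579) and without running OC replicates 1 (0.0901), 2 (0.0527) and 3 (0.0544), and its average call with scaling by library totals alone (0.184), without sedentary vehicle replicate 3 (0.0511) and without running OC replicate 1 (0.0504). The average Mccc1 call was lost with scaling by library totals alone (0.0728). Both were also lower on average, at -0.28 and -0.27. Exons of Mccc1 overlap 3 genes on the opposite strand, and the strand setting of the counting is not stated.

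Aass, the first enzyme of lysine breakdown, was called on average only, at -0.38 (SE 0.10, adjusted p = 0.0105). Aass gave 504, 414, 447, 423 and 524 CPM in the sedentary vehicle mice and 484, 427, 471, 525 and 475 CPM in the running vehicle mice. The sedentary OC mice gave 291, 297, 412, 459.9 and 328 CPM, and the running OC mice 289, 517, 353, 341 and 327 CPM. The groups overlapped in both activities. The Aass change was -0.37 (adjusted p = 0.0852) in sedentary and -0.38 (adjusted p = 0.0855) in running mice. Running OC replicate 2 stood above the other 4 of its group. Without it Aass was called in running mice (-0.54, adjusted p = 0.00771) and in sedentary mice (-0.37, adjusted p = 0.0388). Without sedentary OC replicate 4 it was called in sedentary mice (-0.48, adjusted p = 0.0313). The average Aass call was lost with scaling by library totals alone (0.0525). Dpys, of pyrimidine breakdown, stood at -0.10 (adjusted p = 0.592) on average.

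Per kb of exon, levels in sedentary vehicle mice ranged from 2191 CPM per kb for Gnmt to 6.45 for Mccc1. The highest after Gnmt were Ass1 (1684), Hpd (1617), Tat (776), Cps1 (734) and Ahcy (691). In running OC mice Tat, at 1490.5 CPM per kb, stood beside Ass1 at 1500.3 and Hpd at 1424. Csad went from 23.4 CPM per kb in sedentary vehicle mice to 101 in sedentary OC mice, past Prodh2 at 96.5 and Hal at 53.6. No test was run between genes.

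**Figure D3:**
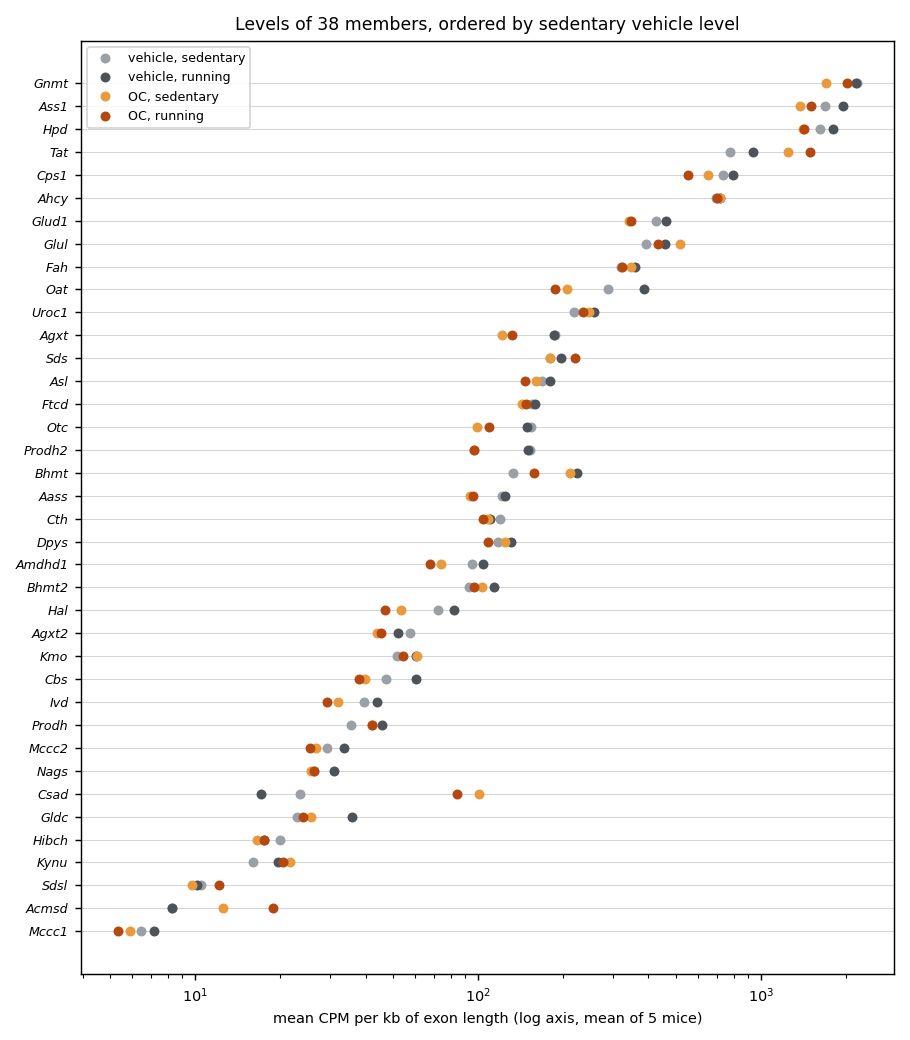
Mean CPM per kb of exon length (log axis) of the 38 members in the 4 groups, ordered by the level in sedentary vehicle mice; each point is the mean of 5 mice. Csad, Tat and Acmsd show OC points to the right of the vehicle points, and Otc, Prodh2, Oat and Agxt to the left.

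Wheel running was compared on each diet, in comparisons that share their libraries with those of OC. With edgeR, 0 of 38 members were called on vehicle diet, on OC diet or averaged over diet, beside 0.00% of all genes in each. On vehicle diet 28 of 38 members had a positive change, and the share of positive changes over all genes was not counted. There 6 of 38 had an unadjusted p below 0.05, beside 13.9% of all genes, and all 6 were higher (Bhmt, Bhmt2, Cbs, Gldc, Kmo and Nags). Gldc, for instance, spanned 96.4 to 185 CPM in sedentary and 170.4 to 290.4 CPM in running vehicle mice, a change of 0.64 (adjusted p = 0.264), and Bhmt changed by 0.75 (adjusted p = 0.329). On OC diet 17 of 38 changes were positive and 0 members had an unadjusted p below 0.05. Over all genes 1414 had an unadjusted p below 0.05 on vehicle diet and 693 (6.79%) on OC diet. The vehicle comparison includes sedentary vehicle replicate 2, the lowest of its group for 24 of the 38 members. DESeq2 called 41, 1 and 2 genes on vehicle, on OC and on average, none of them a member, and limma voom called 0. The test of whether the OC effect differed between activities also called 0 members, beside 0.00% of all genes. In it 7 of 38 members had an unadjusted p below 0.05, beside 17.7% of all genes (1802). All 7 were negative (Mccc1, Glul, Hal, Bhmt, Bhmt2, Gldc and Kmo). The directions of the genes with such a p over all genes were not counted, here or on vehicle diet. Bhmt, Bhmt2, Gldc and Kmo were also among the 6 on vehicle diet, and both comparisons use the same vehicle libraries. DESeq2 called 58 genes there and limma voom 0, with 0 members in both.

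**Figure D4:**
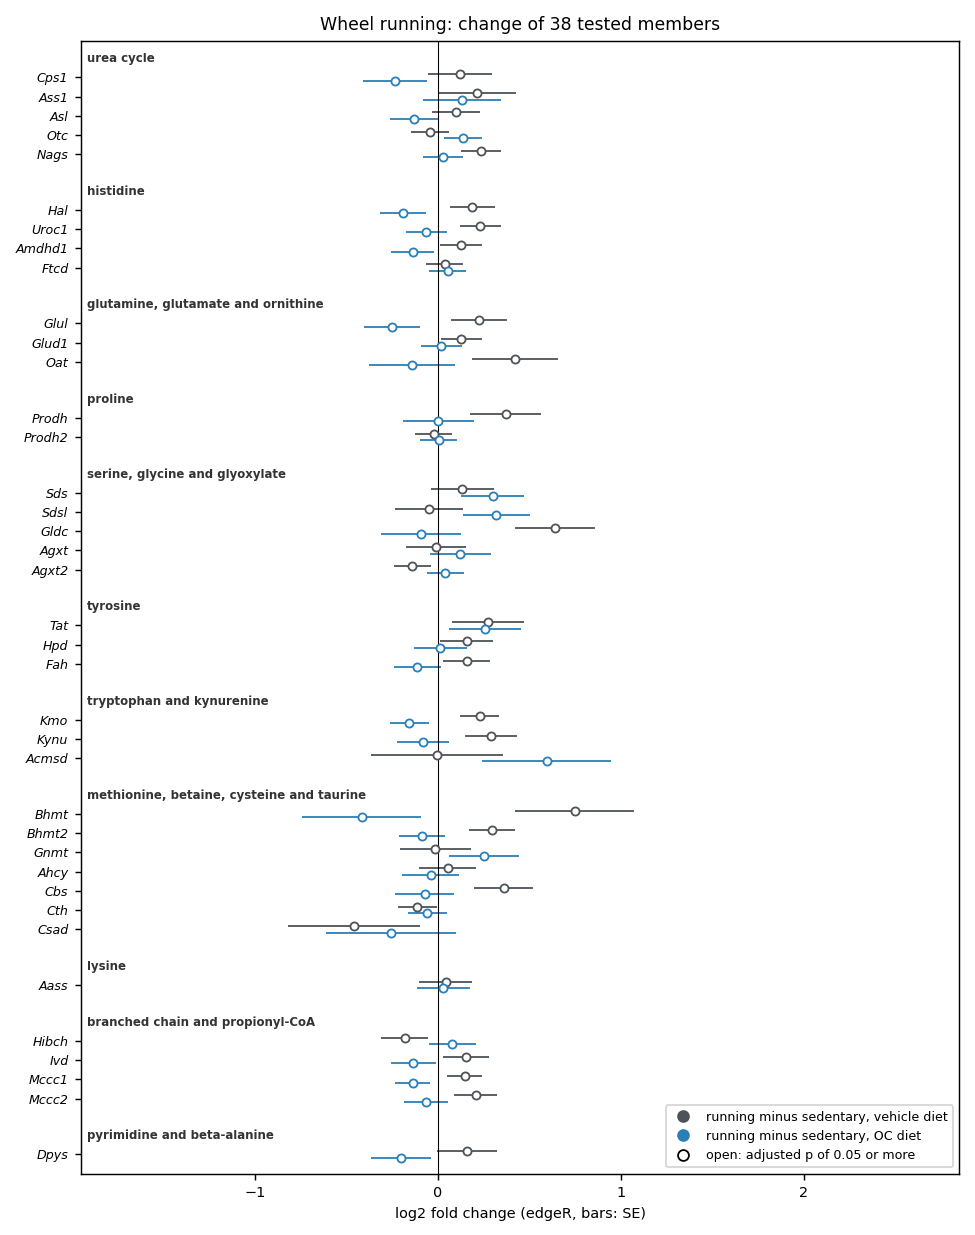
Log2 fold change of running against sedentary for the 38 members on vehicle diet (grey) and OC diet (blue), 5 mice a group, with SE bars; the horizontal scale is that of the OC plot. All points are open, as no member had an adjusted p below 0.05, and 28 of 38 grey points are above 0.

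A list of 67 further amino acid catabolic enzymes had 47 tested genes, of which 19 were called on OC on average (40.4%), 5 higher and 14 lower, beside 22.9% of all genes, with a median of -0.10. In sedentary mice it was 5 higher and 6 lower (23.4%, beside 16.3% of all genes), and in running mice 3 higher and 12 lower (31.9%, beside 13.2%). Asrgl1, an asparaginase, rose by 1.00 (SE 0.09, adjusted p = 3.43e-08). The mitochondrial thiolase Acat1 of isoleucine and ketone metabolism changed by -0.79 (SE 0.09, adjusted p = 8.40e-07), the glycine cleavage protein Amt by -0.59 (SE 0.10, adjusted p = 0.000179), Ppm1k, the phosphatase that activates branched-chain keto acid dehydrogenase, by -0.73 (SE 0.13, adjusted p = 0.000308) and the kynurenine aminotransferase Kyat3 by -0.37 (SE 0.07, adjusted p = 0.000481). Ahcyl1, a relative of Ahcy, rose by 0.42 (SE 0.07, adjusted p = 0.000277). Sardh, Gstz1 and Gcsh had the smallest adjusted p among the uncalled, at -0.24 (adjusted p = 0.0822), -0.20 (adjusted p = 0.102) and -0.18 (adjusted p = 0.104). Of 16 regulators tested 3 rose and 2 fell on average (31.2%), beside 22.9% of all genes (11.9% higher and 11.0% lower). Hnf4a, Cebpa, Cebpb and Nr3c1 had displaced lines and were not tested. Stat5a rose by 1.59 (SE 0.17, adjusted p = 6.21e-07), and the oestrogen receptor Esr1 by 0.34 (SE 0.11, adjusted p = 0.0330). The Esr1 call was lost without sedentary vehicle replicates 2 (0.0514) and 3 (0.0568), without running vehicle replicates 1 (0.0647) and 2 (0.0608), without sedentary OC replicate 3 (0.0733) and without running OC replicates 2 (0.0572), 4 (0.0506) and 5 (0.0735). The nuclear receptor Ppara changed by -0.54 (SE 0.13, adjusted p = 0.00534). Creb3l3 was also higher and Sirt3 lower, and these calls were lost without any 1 of 13 and 15 of the libraries. Among 3 tested genes of amino acid synthesis Asns, the asparagine synthetase, rose by 1.44 on average (SE 0.40, adjusted p = 0.0117). The Asns change was 1.99 (adjusted p = 0.0280) in running mice and 0.90 (adjusted p = 0.272) in sedentary mice, where it was not called. The running Asns call was lost without any 1 of 5 of the libraries. Of 31 transporters listed 2 were tested, Aqp9 and Rhbg, and 0 were called on average with edgeR.

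Cell type markers moved beside the members. Over all tested genes 22.9% were called on average (11.0% lower), 16.3% in sedentary mice (7.20% lower) and 13.2% in running mice (6.06% lower). Of 7 tested hepatocyte markers 5 fell on OC on average (Alb by 0.78 on the log2 scale), and their summed level was 194499 to 229138 CPM in sedentary vehicle and 121797 to 149491 CPM in sedentary OC mice. Running mice gave 173566 to 237961 CPM on vehicle and 105658 to 149331 CPM on OC. Of 6 periportal markers that are not members 2 fell (Hsd17b13 and Pigr), with summed levels of 3847 to 5198 and 2764 to 3279 CPM in sedentary mice. In running mice they were 4217 to 4758 and 2678 to 3786 CPM. Of the 6, 3 had a positive change in each activity and 2 on average, and their median was -0.09 on average. Of 6 pericentral markers 0 were called on average with edgeR, and 6 of 6 changes were positive in sedentary mice. Their sedentary sums were 573 to 959.8 CPM on vehicle and 965 to 1086 CPM on OC. The 573 was sedentary vehicle replicate 2, and the rest of that group gave 857 to 959.8 CPM. In running mice 4 of 6 were negative, 1 (Rhbg) was called as lower, and the sums overlapped, at 752 to 1049 CPM on vehicle and 869 to 1097 CPM on OC. Of 6 stellate markers 5 fell in sedentary mice, with overlapping summed levels of 413 to 717 CPM on vehicle and 244 to 448 CPM on OC. The 717 was again sedentary vehicle replicate 2, and the rest of that group gave 413 to 484 CPM. In running mice 2 of the 6 fell, and the sums overlapped, at 360 to 507 CPM on vehicle and 260.5 to 430.0 CPM on OC. Of 6 Kupffer cell and macrophage markers 1 rose on average, and of 5 cholangiocyte and 5 endothelial markers 0 were called with edgeR. Lymphocyte and neutrophil markers summed to at most 14.8 CPM in any library, and among them Cd79a fell in both activities and S100a8 and S100a9 rose in running mice. Of 2 adipocyte markers 1 (Plin1) fell on average, with sums of at most 19.4 CPM. The part of any of these markers in the members' changes was not tested.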

How the data were processed

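Liver RNA of 20 mice was sequenced as stranded paired-end libraries, per the labels' protocols. The submitters' processing notes name mm10, STAR, R 4.05 and limma. How reads were counted, and with which strand setting, is not given in the sources used here. The unit of the deposited table was judged from its values to be expected counts, since 2 unused genes were not whole. Every value used was whole. The planned design had assumed counts. Of 35504 genes 11511 (32.42%) had displaced or doubtful lines and were left out. Positions and exon lengths are from GENCODE vM21 (GRCm38). The fit used edgeR 4.0.16 under R 4.3.3 (filterByExpr, TMM, quasi-likelihood, 1 mean per group over all 20 libraries, 7 contrasts). Alternatives used DESeq2 1.42.0 and limma 3.58.1. The fit was also run on simulated counts, in which the changed genes changed alike in both activities and none changed with running. Its outcome is not reported here. Members, lists and motifs were chosen with earlier results of these data known. Values in every library were given for members called in any contrast and for the urea cycle enzymes, with up to 6 called and 3 uncalled genes of each other list by smallest adjusted p, part of which was left out for length. CPM errors are the SD of 5 mice. The result of 1 marker gene is not reported here.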

Additional observations from a re-analysis of the deposited data

Results flagged for a closer look

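In each of the 152 combinations of 38 members and 4 groups, the highest and lowest library were compared with the other 4. In 14 of them 1 library stood apart. The cutoff gives about 1 in 20 for independent values, but the members share the same libraries, so the count cannot be set against that rate. Sedentary vehicle replicate 2 accounted for 4 of the 14. In running vehicle replicate 4, Otc stood at 705 CPM (above 607 to 631 in the other 4). In sedentary vehicle replicate 2, Glul stood at 728 CPM (below 1362 to 1477 in the other 4), Bhmt2 at 162 CPM (below 234 to 254 in the other 4), Csad at 229.9 CPM (above 44.1 to 68.5 in the other 4) and Mccc2 at 58.7 CPM (below 84.0 to 91.5 in the other 4). In sedentary OC replicate 3, Oat stood at 621 CPM (above 437 to 479 in the other 4), Gldc at 225 CPM (above 133 to 142 in the other 4) and Ivd at 215 CPM (above 160.5 to 172 in the other 4). In sedentary OC replicate 4, Agxt2 stood at 121 CPM (below 140.1 to 146 in the other 4). In running OC replicate 2, Tat stood at 5075 CPM (above 2914 to 3456 in the other 4) and Aass at 517 CPM (above 289 to 353 in the other 4). In running vehicle replicate 2, Kmo stood at 215 CPM (below 288 to 314 in the other 4). In sedentary OC replicate 5, Gnmt stood at 2485 CPM (above 1827 to 1971 in the other 4). In sedentary vehicle replicate 3, Cbs stood at 479 CPM (above 299 to 351 in the other 4). No explanation was tested for any of these.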

How the results depend on the processing

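The comparisons were repeated under 25 alternatives: RLE size factors, library totals alone, no filter, DESeq2, limma voom and leaving out each of the 20 libraries. Of 39 member calls 25 held in all of them and 14 were lost in at least 1, and 0 reversed. There were 17 member values that became called under an alternative. Leaving out each library in turn gave 5 to 12 members called on OC in sedentary mice, 9 to 15 in running mice and 15 to 18 on average. Over all genes the same runs gave 1023 to 1794, 817 to 1679 and 2043 to 2616 calls. For members they gave 0 to 0 for running on either diet, running on average and the interaction. The sedentary count of 5 came without sedentary OC replicate 2 and without replicate 5, and the 12 without sedentary vehicle replicate 2. The cause was not tested. The lowest count of a tested member in a library was 100. No paired analysis was possible because the replicate numbers were given in accession order and pair no samples. The count test assumes whole counts, and the table's displaced lines leave 10 listed genes, Arg1 among them, without a value.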

Other observations

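The spread between mice was looked at after the values were seen, and its difference between groups was not tested. The median coefficient of variation of CPM over the 38 members was 18.7% in sedentary vehicle, 14.5% in running vehicle, 10.5% in sedentary OC and 14.1% in running OC mice (n = 5 each). For Ass1 it was 32.7%, 33.5%, 5.44% and 8.28%. Sedentary vehicle replicate 4 held the lowest value of its group for 9 of the 38 members, Ass1, Tat and Acmsd among them. Running vehicle replicate 5 did so for 13 of the 38, Ass1, Tat, Acmsd and Kynu among them. Running vehicle replicate 4 held the highest value of its group for 25 of the 38 members, and running OC replicate 1 the lowest for 20.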
